A study of Mus musculus with 6 samples.

Results

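Potassium channel genes were followed through the cell classes of the mouse uterine tube (oviduct). The members were all genes whose symbol is Kcn followed by lower-case letters and then digits, 92 of the 50559 genes listed in each of the 6 matrices; another 6 symbols that begin with Kcn did not match this pattern and were left out. The measurement was single-cell RNA-seq with 10x Genomics 3' v2 chemistry, in which each UMI (unique molecular identifier) stands for 1 captured RNA molecule. The animals of all 6 libraries were adult female C57BL6 mice in estrus, with no genetic change and no treatment named. Tissue of 1 region was combined over the mice of a group, so a library is a pool of mice: 3 libraries came from the distal tube, which lies toward the ovary (replicates 1, 2 and 3), and 3 from the proximal tube, which lies toward the uterus (replicates 2, 3 and 4). Because each library pools animals, no p-value below measures the spread between mice. In the region comparisons p-values measure the spread between libraries. In the class comparisons, which take the library as block, they measure how class levels vary between libraries beyond that block, estimated over all 6 classes together.

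Potassium channels let potassium leave or enter the cell and thereby set the resting membrane potential and end depolarisation. In smooth muscle they oppose calcium entry through voltage-gated calcium channels and so limit contraction, and in secretory and ciliated epithelia they provide the driving force for ion and fluid transport. A functional channel is built from pore subunits, encoded by most Kcn genes, and auxiliary subunits that change its gating or its delivery to the membrane.

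The libraries differed in size. The 3 distal libraries gave 4115 to 6652 cells after filtering, and the 3 proximal libraries gave 325 to 1133. Proximal replicate 3 was the shallowest, with a median of 730 UMIs per cell, against 4623 in distal replicate 2. Pairs of libraries shared 0 to 47 cell barcodes, at most 1.85% of the smaller library. Clusters were named from fixed marker lists and are "like" these cell types in that sense only: 3971 distal and 532 proximal cells were called non-ciliated epithelium, 1788 and 37 ciliated epithelium, 7010 and 1119 fibroblasts, 1627 and 9 visceral smooth muscle, 159 and 64 vascular smooth muscle, and 180 and 4 pericytes. Summed markers fitted these names in the distal libraries: ciliated markers came to a summed level of 11890 to 13930 CPM (counts in each 1000000 counts of a class in a library) in the ciliated class and 173 to 237 CPM in the non-ciliated class, and vascular markers came to 5739 to 6187 CPM in vascular and 689 to 909 CPM in visceral smooth muscle. Pericyte markers came to 9327 to 13240 CPM in pericytes and 1770 to 3076 CPM in vascular smooth muscle. Levels below are CPM of all UMIs of a class in a library, as mean ± SD over libraries with at least 10 cells of the class. Each captured molecule gives 1 count, so levels of different genes were compared as CPM without division by length. Whether capture differed with gene length was not tested, which limits comparisons between genes. Distal replicate 2 had 4 vascular smooth muscle cells and does not enter that class. It had 14 pericytes, so its pericyte levels rest on few counts.

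Of the 92 members, 40 encode voltage-gated pore subunits, 11 their auxiliary subunits, 12 calcium- or sodium-activated channel subunits, 15 inward rectifiers and 14 K2P leak channels (tandem pore domain, the source of background potassium current). No UMI was found for 3 members. A mean of at least 20 CPM in at least 1 of the 6 classes was reached by 39 members: 16 voltage-gated pore subunits, 6 of their auxiliary subunits, 8 calcium- or sodium-activated subunits, 2 inward rectifiers and 7 K2P channels. Of these 39, 7 had their highest distal level in non-ciliated epithelium, 8 in ciliated epithelium, 3 in fibroblasts, 6 in visceral smooth muscle, 7 in vascular smooth muscle and 8 in pericytes. In 26 of the 39, every distal library of the highest class lay above every distal library of the next class, beside 43.4% of the 11203 genes of any kind that reached this level, and in the other 13 the libraries of the 2 leading classes overlapped.

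**Figure D1:**
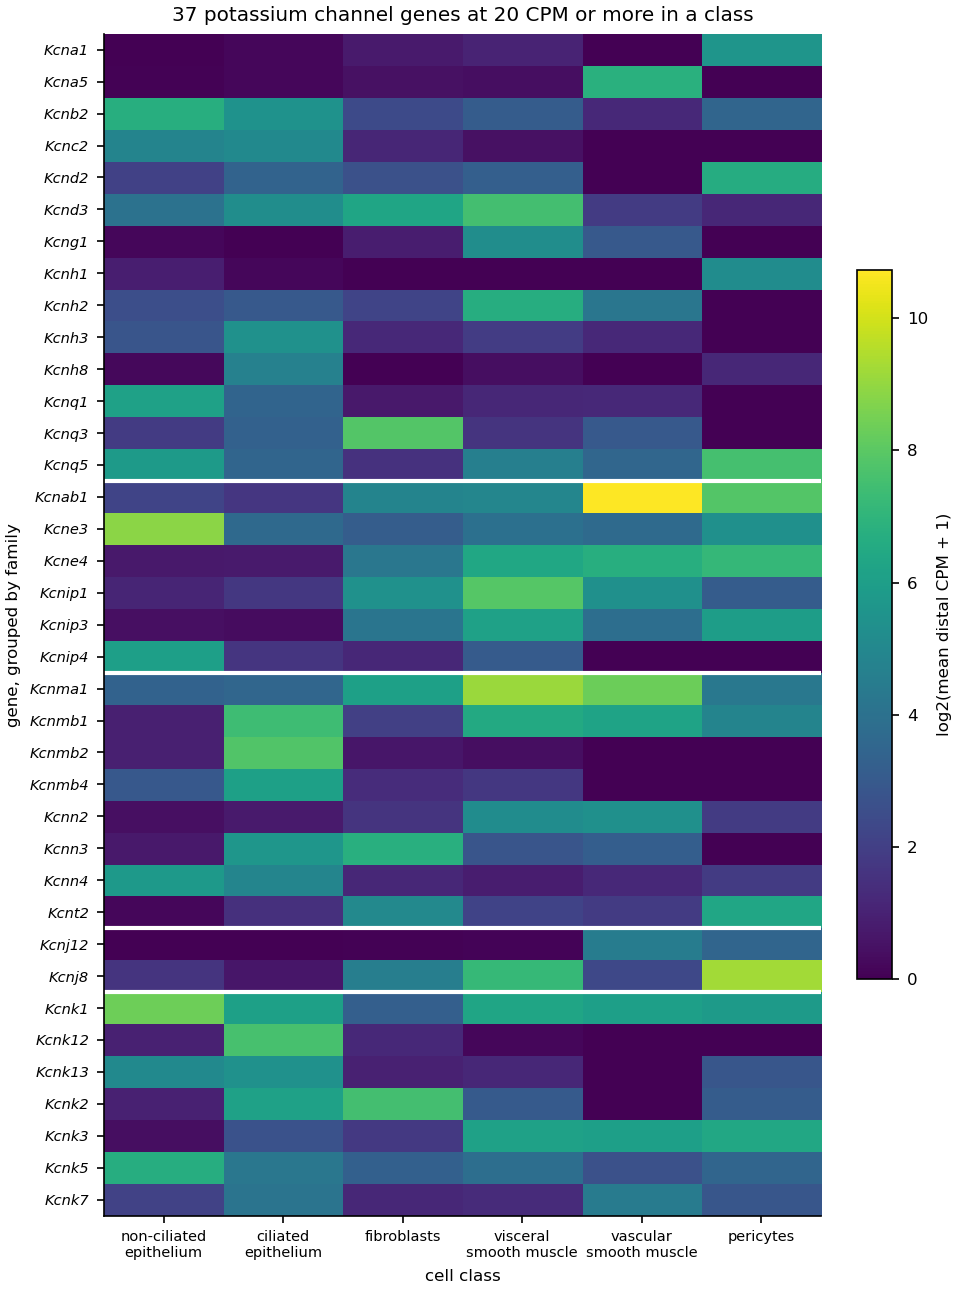
Mean distal level of 37 of the 39 potassium channel genes that reached 20 CPM in a class; rows are genes grouped by family (white lines divide voltage-gated pore, voltage-gated auxiliary, calcium- and sodium-activated, inward rectifier and K2P genes), columns are the 6 classes, and colour is log2(mean CPM + 1). Kcnab1 in vascular smooth muscle (1692 CPM) and Kcnj8 in pericytes (607 CPM) are the brightest cells of their classes, and the inward rectifiers have 2 rows.

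Summed over all 92 members, the distal level was 1429 ± 44.2 CPM in non-ciliated epithelium, 1363 ± 86.1 CPM in ciliated epithelium, 974 ± 172 CPM in fibroblasts, 1961 ± 239 CPM in visceral smooth muscle, 1906 ± 150 CPM in pericytes (n = 3 each) and 2908 ± 181 CPM in vascular smooth muscle (n = 2). Fibroblasts were lowest and vascular smooth muscle highest, and the means of visceral smooth muscle and pericytes lay within their SDs of each other. Different families made up these sums. Voltage-gated pore subunits came to 323 to 488 CPM in all 6 classes. Their auxiliary subunits came to 1866 CPM in vascular smooth muscle and 28.7 CPM in ciliated epithelium, calcium- and sodium-activated subunits to 702 CPM in visceral smooth muscle and 75.0 CPM in non-ciliated epithelium, and inward rectifiers to 617 CPM in pericytes and 3.76 CPM in non-ciliated epithelium. K2P channels were highest in the epithelium, with 472 CPM in the non-ciliated and 429 CPM in the ciliated class.

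In non-ciliated epithelium the leading members were an auxiliary subunit and a leak channel. Kcne3, whose product holds the Kcnq1 channel open in secretory epithelia, read 500, 561 and 340 CPM in distal replicates 1, 2 and 3 and 690, 197 and 250 CPM in proximal replicates 2, 3 and 4. The 2 regions overlapped for Kcne3, and its distal mean of 467 ± 115 CPM stood beside 7.99 to 40.3 CPM in the other 5 classes. Kcnk1, a K2P leak channel, read 295, 353 and 336 CPM in the distal and 267, 334 and 352 CPM in the proximal libraries, with the 2 regions overlapping. Kcnk5, an acid- and alkali-sensitive K2P channel, stood at 101 ± 14.8 CPM. Kcnb2, a delayed rectifier pore, was at 103 ± 40.4 CPM, and Kcnq1, the pore partner of Kcne3, at 70.3 ± 28.7 CPM (distal, n = 3). Kcnn4, the intermediate-conductance calcium-activated channel of many secretory cells, was at 53.6 CPM, with 53.1, 62.1 and 45.6 CPM in the 3 distal libraries.

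The epithelial subtypes divided these members unequally. Cluster 2, led by Upk1a and S100b, and cluster 25, led by Dcpp2, had the highest distal Kcne3, at 812 and 905 CPM, while cluster 7, led by Slc6a2 and Galntl6, had 150 CPM. Kcnk1 differed less, from 266 to 343 CPM over the distal subtypes (clusters 2, 6, 7, 12 and 25). Voltage-gated pores lay mainly elsewhere: Kcnb2 was at 191 CPM in cluster 6, led by Trpm3 and Sox2ot, and at 61.0 CPM in cluster 7, against 4.74 CPM in cluster 2 and 0 in clusters 12 (led by Wfdc18 and Ovgp1) and 25. Kcnq1 was highest in the same pair of subtypes, with 108 CPM in cluster 7, 76.1 CPM in cluster 6 and 16.1 to 30.5 CPM in the other 3. Kcnq5, a muscarinic-sensitive voltage-gated pore, was at 143 CPM in cluster 7 and 38.9 CPM in cluster 6, against at most 2.40 CPM in the other 3, and Kcnip4, a calcium-binding auxiliary subunit of A-type channels, was at 117 CPM and 71.5 CPM, against 0.833 and 3.59 CPM in clusters 2 and 25.

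**Figure D2:**
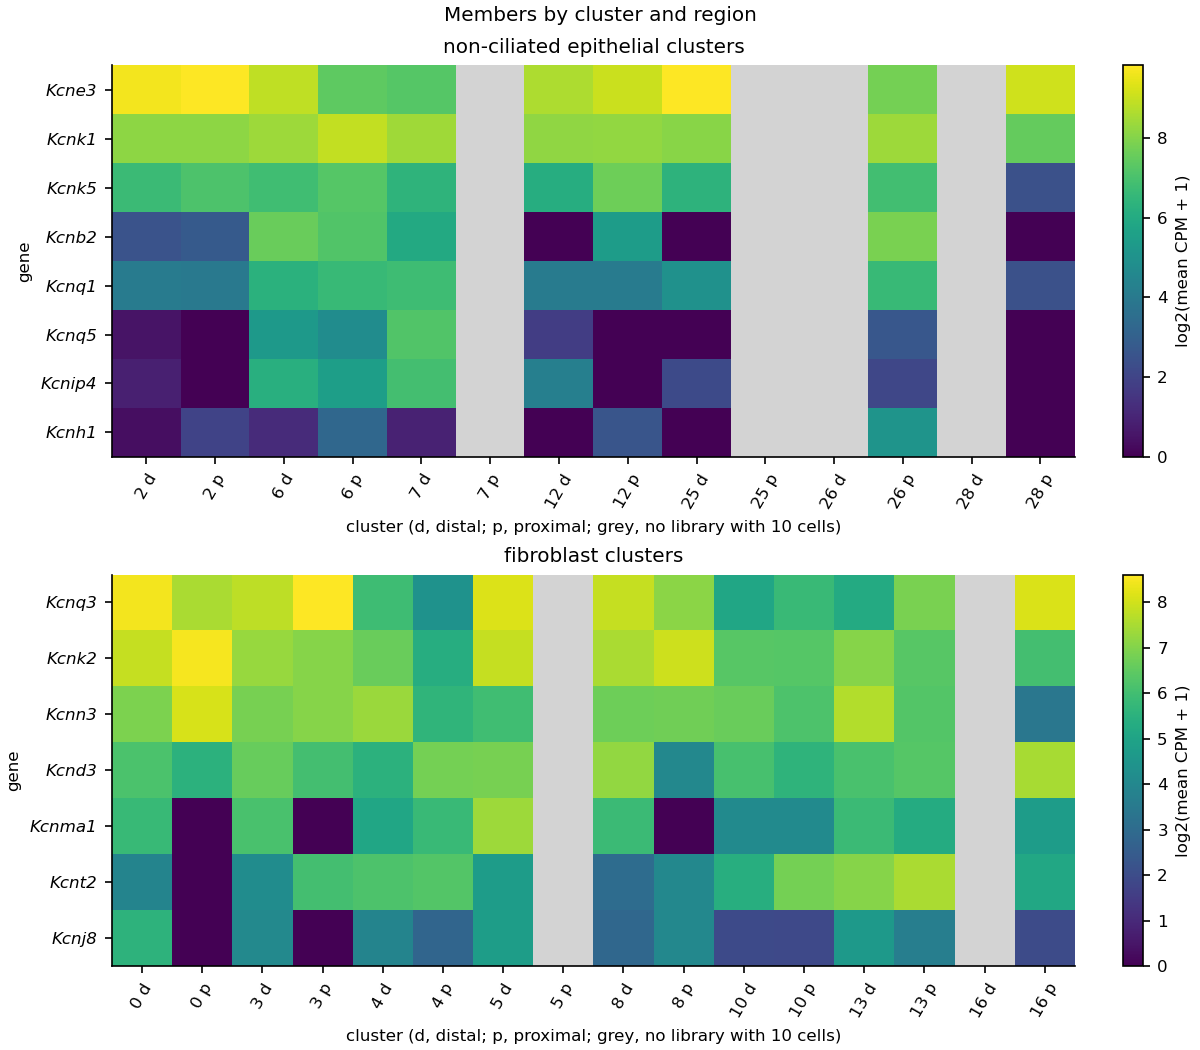
Members by cluster and region; colour is log2(mean CPM + 1), columns are non-ciliated epithelial clusters (upper panel) or fibroblast clusters (lower panel) in distal (d) and proximal (p) libraries, and grey marks clusters with no library of 10 cells. In the upper panel Kcnq5 and Kcnip4 are bright in distal clusters 6 and 7, and Kcnk1 is bright in every filled column.

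The comparison of ciliated with non-ciliated epithelium asks which channels distinguish cells that beat from cells that secrete. Kcnmb2 and Kcnmb1, auxiliary beta subunits of the large-conductance calcium-activated (BK) channel, and Kcnk12, a K2P family member, led the ciliated class. Kcnmb2 read 200.2, 229.6 and 246 CPM in distal replicates 1, 2 and 3 of the ciliated class and 0.897 CPM on average in the non-ciliated class. Kcnk12 read 208, 190 and 189 CPM, against 0.970 CPM. Kcnmb1 read 152, 183 and 167 CPM, against 0.934 CPM. For these 3 genes the 2 classes did not overlap in any distal library, and the log2 differences were 7.68 ± 0.29 for Kcnmb2 (edgeR, adjusted p = 9.41e-24), 7.36 ± 0.26 for Kcnk12 (1.86e-24) and 7.25 ± 0.27 for Kcnmb1 (6.61e-25). The windows around their RefSeq transcription starts are shown because these 3 genes lead the ciliated class; each runs from 250 bases before to 50 bases after the start, 5′ to 3′ on the gene's strand in GRCm38.p6, at chr3:31902453-31902752 on the plus strand for Kcnmb2, chr17:87797945-87798244 on the minus strand for Kcnk12 and chr11:33962763-33963062 on the plus strand for Kcnmb1. Capitals mark the core GTTNCC, searched on both strands, of the X-box that RFX factors of ciliated cells bind.
Kcnmb2: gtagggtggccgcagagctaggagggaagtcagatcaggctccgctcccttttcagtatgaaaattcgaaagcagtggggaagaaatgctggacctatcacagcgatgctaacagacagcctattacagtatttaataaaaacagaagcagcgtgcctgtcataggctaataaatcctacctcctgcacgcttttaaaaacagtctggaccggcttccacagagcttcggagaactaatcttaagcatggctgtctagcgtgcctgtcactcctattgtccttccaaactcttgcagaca
Kcnk12: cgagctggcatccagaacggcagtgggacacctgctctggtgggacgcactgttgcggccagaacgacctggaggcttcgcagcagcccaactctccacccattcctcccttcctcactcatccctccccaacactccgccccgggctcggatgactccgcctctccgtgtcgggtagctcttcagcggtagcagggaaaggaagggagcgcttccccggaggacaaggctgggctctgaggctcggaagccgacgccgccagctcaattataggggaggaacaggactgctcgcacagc
Kcnmb1: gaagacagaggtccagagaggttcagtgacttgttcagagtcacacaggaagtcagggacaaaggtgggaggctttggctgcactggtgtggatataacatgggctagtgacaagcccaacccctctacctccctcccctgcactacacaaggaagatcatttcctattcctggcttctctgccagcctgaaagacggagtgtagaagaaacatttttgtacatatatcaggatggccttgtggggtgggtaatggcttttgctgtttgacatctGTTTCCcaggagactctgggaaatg
The core occurs in the Kcnmb1 window, just after the start, and these letters are not in the other 2 windows. It is a frequent string: 45.34% of all 32851 RefSeq promoter windows of this length hold it, as do 47 of the 92 windows of the 67 members that matched by symbol (51.09%). The forkhead core GTAAACA is in 3.65% of all windows and in 0 of the members' windows.

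Over all members, 53 entered the class comparisons, which were fitted on 15807 genes in the distal libraries. In ciliated against non-ciliated epithelium 37 of the 53 differed at an adjusted p under 0.05 (edgeR), beside 62.6% of all genes tested; 23 were higher in ciliated cells (30.8% of all genes) and 14 lower (31.8%). The members' median log2 difference was 0.87, against -0.02 over all genes. These classes are clusters of the same cells, made without the 92 members among the clustering genes, so the p-values describe the clusters.

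Beyond the 3 leading genes, the members higher in ciliated cells came from several families. Kcnmb4, a further BK beta subunit, was at 66.9 ± 16.5 CPM against 6.86 CPM (log2 difference 3.09 ± 0.26, edgeR adjusted p = 4.38e-13), and Kcnmb3 was at 11.6 against 0.378 CPM (4.56 ± 0.51). Kcnn3, a small-conductance calcium-activated channel, read 53.2, 65.1 and 28.8 CPM against a mean of 0.652 CPM (5.92 ± 0.31). Kcnk2, a mechanically gated K2P channel, read 41.0, 113 and 53.4 CPM, with distal replicate 2 apart from the other two, against 0.970 CPM (5.75 ± 0.32). Kcnj2, a strong inward rectifier, was higher by 2.95 at a low level of 11.6 CPM. Kcnh8, of the ether-a-go-go family, read 18.7, 42.2 and 14.4 CPM (6.67 ± 0.50), and Kcns1, a modifier subunit, had 27 counts against 1, a ratio of 122 with an exact 95% counting interval of 20.1 to 4993.

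The members lower in ciliated cells were led by those of the secretory class. Kcne3 read 12.3, 9.68 and 13.6 CPM, all below the 340 CPM of the lowest non-ciliated library (log2 difference -5.48 ± 0.32, edgeR adjusted p = 1.35e-18). Kcnip4 was lower by 5.09 on the log2 scale (-5.09 ± 0.37), Kcna2 differed by -3.46 ± 0.45, Kcnq1 by -3.04 ± 0.23, Kcnq5 by -2.79 ± 0.29, Kcnk5 by -2.67 ± 0.21 and Kcnk1 by -2.51 ± 0.22; Kcng3, a modifier subunit, also differed by -2.51. Kcns3 had 2 counts against 59, a ratio of 0.153 (0.0181 to 0.578). Kcnn4 was lower by a smaller margin, -1.14 ± 0.20, and Kcnk13 (0.15 ± 0.21, adjusted p = 0.552) did not pass the test.

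The BK pore itself did not follow its beta subunits. Kcnma1, which encodes the pore, read 13.7, 7.92 and 10.6 CPM in the ciliated class, and its log2 difference from non-ciliated epithelium was -0.03 ± 0.30 (edgeR, adjusted p = 0.945). In visceral smooth muscle Kcnma1 read 657, 434 and 560 CPM while Kcnmb1, the beta subunit of smooth muscle, read 79.4, 104 and 88.2 CPM. In ciliated cells, on the same CPM scale, Kcnmb1 (167 ± 15.5) and Kcnmb2 (225 ± 23.3) each lay above Kcnma1 (10.7 ± 2.87) in every distal library, and in visceral smooth muscle the order was the opposite. Summed smooth muscle markers were 106 to 226 CPM in the ciliated class and 253 to 422 CPM in the non-ciliated class, in which Kcnmb1 was at 0.934 CPM. The other muscle lists went the other way. Visceral markers came to 29.0 to 47.8 CPM in the ciliated and 19.6 to 25.9 CPM in the non-ciliated class. Vascular markers came to 104 to 149 CPM and 4.92 to 6.87 CPM. The part of smooth muscle RNA in the ciliated Kcnmb1 level was not tested. Lrrc26, whose product acts as a BK gamma subunit in secretory epithelium, was at 26.7 CPM in non-ciliated and 4.19 CPM in ciliated cells (-2.90 ± 0.31).

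The beta subunits also differed in balance among the ciliated clusters. Kcnmb2 was highest in cluster 11, with 315, 321 and 356 CPM, and lowest in cluster 14, with 91.6, 123 and 108 CPM; these libraries did not overlap. Kcnmb4 was highest in cluster 14, with 142, 118 and 89.9 CPM, against 40.0 ± 1.86 CPM in cluster 11 and 19.9 CPM in cluster 9. Kcnmb1 was at 224 ± 19.0 CPM in cluster 14 and at 132 ± 21.6 CPM in cluster 11. Median UMIs per cell were 1102 in cluster 9, 2896 in cluster 11 and 4597 in cluster 14. Cluster 14 also held 4 of the 5 secretory markers in at least 20% of its cells, against 2 in clusters 9 and 11. The part of depth or of secretory RNA in these differences was not tested. A further cluster of 1205 UMIs per cell that stayed unnamed (cluster 21, led by S100g and Wfdc12) had Kcnmb1 at 228 ± 24.3 CPM, Kcnk12 at 191 ± 33.5 CPM and Kcnmb2 at 44.6 ± 3.09 CPM. It held 7 of the 8 ciliated markers in at least 20% of its cells and was left unnamed for its low UMI count, with no such marker among its leading genes. With its cells added to the ciliated class 37 members differed from non-ciliated epithelium, and 35 did when a cluster of very high UMI counts was added instead. Both settings were chosen after seeing the data. Their counts stand without those over all genes and do not set the members against other genes.

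**Figure D3:**
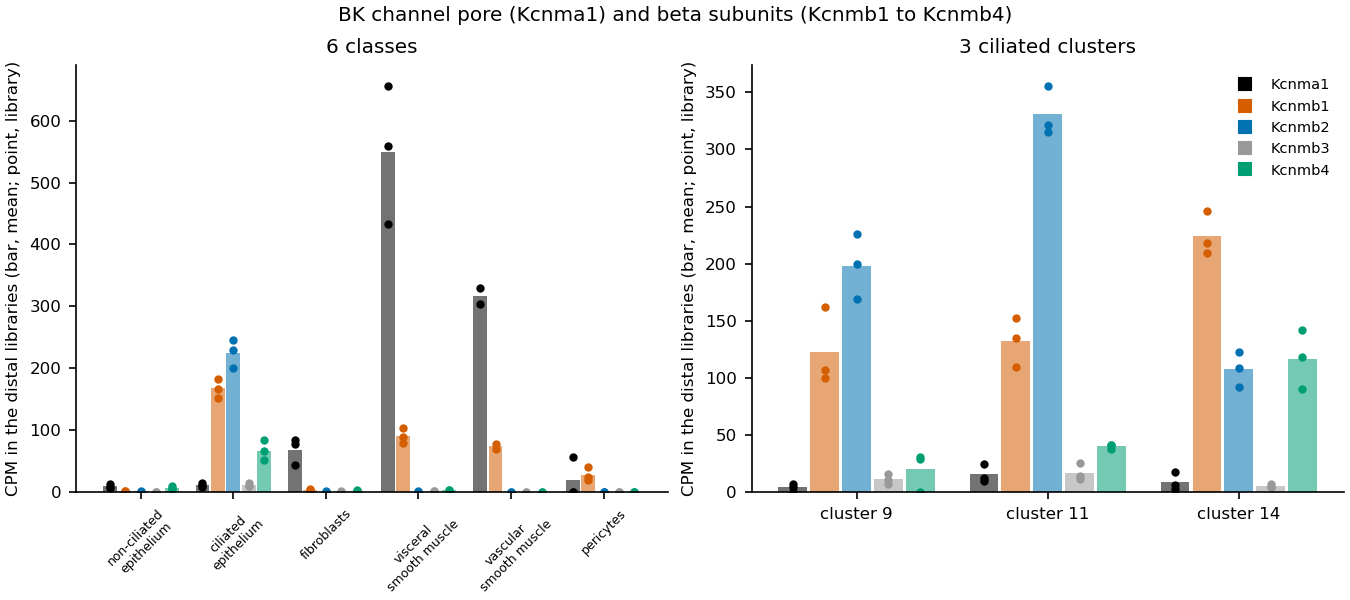
BK channel pore (Kcnma1) and beta subunits (Kcnmb1 to Kcnmb4) in CPM, with bars for means and points for the distal libraries; the left panel shows the 6 classes and the right panel the 3 ciliated clusters. Kcnma1 is at 550 CPM in visceral smooth muscle and 10.7 CPM in ciliated cells, where Kcnmb2 is at 225 CPM and Kcnmb1 at 167 CPM.

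Kcnq3, Kcnk2 and Kcnn3 had their highest level in fibroblasts. Kcnq3, a subunit of the muscarinic-sensitive M-type channel, read 275, 164 and 248 CPM in the distal libraries and at most 9.07 CPM on average in the other 5 classes. Kcnk2 read 209.9, 180.3 and 153 CPM, above the 69.0 ± 38.3 CPM of ciliated cells in every library. Kcnn3 was at 108 ± 17.9 CPM. Of other members that were higher in visceral smooth muscle, Kcnd3, an A-type pore, was at 79.2 ± 22.4 CPM, Kcnma1 at 68.2 ± 21.9 CPM and Kcnip1, an A-type auxiliary subunit, at 41.5 ± 18.7 CPM (n = 3 each).

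Visceral smooth muscle was compared with fibroblasts to separate the contractile from the connective tissue cells of the tube wall. Of the 53 members 25 differed (edgeR, adjusted p under 0.05), beside 31.8% of all genes; 17 were higher in visceral smooth muscle (14% of all genes) and 8 lower (17.9%), with a median log2 difference of 0.51 against -0.05 over all genes. Kcnma1 was the most abundant member of the class at 550 ± 112 CPM, and all 3 libraries lay above the highest fibroblast library, 83.8 CPM (2.97 ± 0.22, adjusted p = 1.1e-14). Its partner Kcnmb1 differed by 4.79 ± 0.23 (2.07e-20). The A-type pair Kcnd3 and Kcnip1 was next: Kcnip1 read 318, 145 and 258 CPM (2.48 ± 0.20) and Kcnd3 read 174, 162 and 207 CPM (1.13 ± 0.19), both above every fibroblast library.

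Further members of visceral smooth muscle act near the resting potential. Kcnk3, an acid-sensitive leak channel, was at 69.4 ± 25.0 CPM against 2.40 CPM (4.81 ± 0.26, edgeR adjusted p = 9.08e-19), and Kcnh2, the pore of the rapid delayed rectifier of the heart, read 95.1, 121 and 85.8 CPM (4.71 ± 0.23). Kcnj8, the pore of the ATP-sensitive channel of muscle and mural cells, read 154, 138 and 138 CPM (2.54 ± 0.19). Kcng1, a modifier subunit, differed by 5.32 ± 0.37, Kcnn2 by 4.06 ± 0.32, Kcnq5 by 3.51 ± 0.34, Kcnk1 by 3.17 ± 0.24 and Kcne4 by 2.13 ± 0.19. Lower than in fibroblasts were Kcnq3 (-7.36 ± 0.35), Kcnk2 (-4.61 ± 0.29), Kcnn3 (-4.32 ± 0.27), Kcnt2, a sodium-activated channel (-3.58 ± 0.33), Kcnk6 (-2.32), Kcng4 (-2.23 ± 0.34), Kcnn1 (-1.43) and Kcnk12, with 2 counts against 34 (ratio 0.221, exact 95% counting interval 0.0257 to 0.861).

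**Figure D4:**
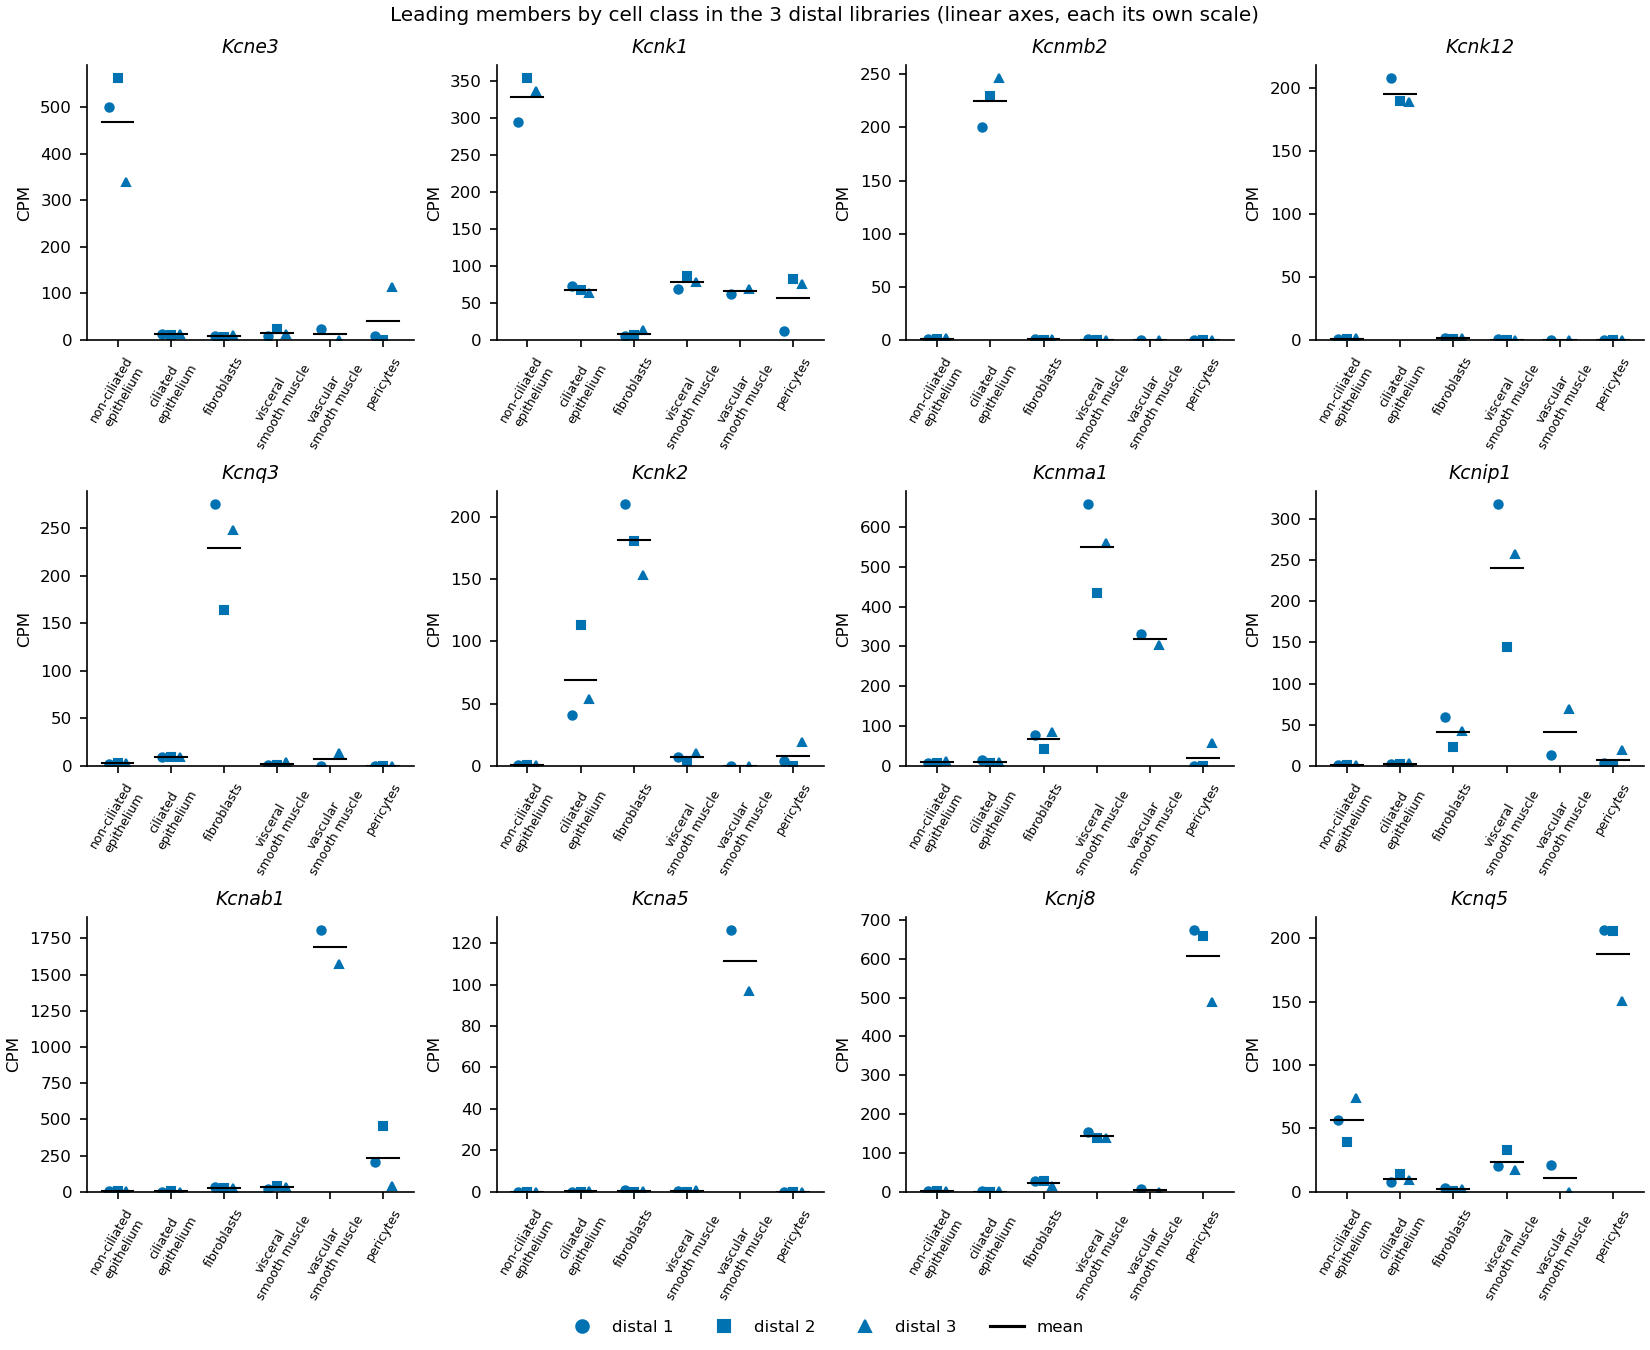
Levels of 12 leading members in the 3 distal libraries (symbols) with their mean (line) in each of the 6 classes, in CPM on linear axes that differ between panels. Most panels have 1 class above the rest, such as Kcne3 in non-ciliated epithelium (467 CPM) and Kcnq3 in fibroblasts (229 CPM), while Kcnma1 and Kcnk2 have 2 raised classes.

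Vascular smooth muscle, compared with visceral smooth muscle, was dominated by Kcnab1, the beta subunit of shaker-type channels that binds NADPH. Kcnab1 read 1808 and 1577 CPM in distal replicates 1 and 3, against a mean of 29.7 CPM in visceral smooth muscle, and the classes did not overlap (log2 difference 5.94 ± 0.32, edgeR adjusted p = 2.81e-18). Kcna5, a shaker-type pore of arterial muscle, had 54 counts (126 and 96.8 CPM) against 2 counts, a ratio of 428 with an exact 95% counting interval of 113 to 3621. Kcnj2 had 3 counts against 1 (ratio 47.5, interval 3.82 to 2494). In all 4 members were higher and 7 lower, 11 of 53 beside 13.1% of all genes (6.73% higher, 6.34% lower), with a median log2 difference of -1.88 against -0.26 over all genes.

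The 7 lower members included all 6 of those at 20 CPM or more whose highest level over the classes was in visceral smooth muscle. That overlap is no separate result, since the same distal libraries gave the ranking and the test. Kcnj8 had 3 counts against 1049 (ratio 0.0453, exact 95% counting interval 0.00933 to 0.133), Kcnd3 had 2 against 1259 (0.0252, 0.00304 to 0.0911) and Kcng1 had 1 against 339 (0.0467, 0.00118 to 0.262). Kcnip1 differed by -3.68 ± 0.44, Kcnip3 by -2.49 ± 0.48, Kcnh2 by -2.33 ± 0.45 and Kcnma1, at 317 ± 18.5 CPM, by -1.02 ± 0.28 (edgeR, adjusted p = 0.00935). Kcnmb1 (-0.21, adjusted p = 0.836), Kcne4 (0.19), Kcnk3 (-0.38) and Kcnn2 (0.30) did not pass the test. Without distal replicate 1, which holds 131 of the 159 distal vascular cells, 3 of the 11 passed, with 1 vascular library left and the spread taken from the other classes; the Kcnma1 difference then was -1.27 (adjusted p = 0.184), and it was -0.85 (0.146) with no replicate block.

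Pericytes stood apart by the ATP-sensitive channel. Kcnj8 read 674, 658 and 490 CPM in distal replicates 1, 2 and 3 of the pericyte class and had 215 counts against 3 in vascular smooth muscle, a ratio of 95.4 with an exact 95% counting interval of 32.2 to 466. Abcc9, which encodes the sulfonylurea receptor that assembles with the Kcnj8 pore, read 662, 658 and 697 CPM in pericytes and had a mean of 16.5 CPM in vascular smooth muscle (log2 difference 5.90 ± 0.46, edgeR adjusted p = 3.97e-12). Across the 6 classes both genes had the same order from pericytes to visceral smooth muscle (Kcnj8 143 CPM, Abcc9 119 CPM) to fibroblasts (23.3 and 56.9 CPM), with the other 3 classes lower. Abcc8, the other receptor of this kind, had 14 counts in distal vascular smooth muscle, all in replicate 1 (37.6 CPM), against 1 in visceral smooth muscle (ratio 222, interval 33.7 to 9374).

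Of the 53 members 13 differed between pericytes and vascular smooth muscle, beside 5.83% of all genes (edgeR, adjusted p under 0.05); 6 were higher in pericytes (2.18% of all genes) and 7 lower (3.64%), with a median of 0.03 against -0.01. Besides Kcnj8, Kcnq5 read 206.5, 205.5 and 151 CPM (3.17 ± 0.58, adjusted p = 0.000169) and Kcnt2 had 34 counts against 2 (ratio 22.6, exact 95% counting interval 5.8 to 194). Kcnd2, an A-type pore, had 54 counts against 0 and was at least 23.9-fold higher, taking 3 counts over the group as the floor for 0; its pericyte libraries read 187, 0 and 113 CPM. On the same floor Kcnh1 (50.7, 0 and 56.5 CPM) was at least 7.10-fold higher and Kcna1 (42.9, 82.2 and 18.8 CPM) at least 6.21-fold higher.

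The 7 members lower in pericytes included 5 of the 6 most abundant members of vascular smooth muscle, a ranking taken from the same distal libraries as the test. Kcna5 had 0 counts against 54 and was at least 13.5-fold lower, and Kcnh2, with 0 against 9, was at least 2.25-fold lower. Kcnab1 read 207, 452 and 37.7 CPM, a wide spread that still lay below both vascular libraries (-3.42 ± 0.34, edgeR adjusted p = 1.67e-09). Kcnma1 had 3 counts against 145 (ratio 0.0275, exact 95% counting interval 0.00561 to 0.0821), Kcnn2 had 2 against 22 (0.121, 0.0138 to 0.492) and Kcnmb1 differed by -1.95 ± 0.55 (adjusted p = 0.021). Kcne4, the inhibitory subunit that was at 142 ± 54.4 CPM in pericytes and 105 ± 7.95 CPM in vascular smooth muscle, did not pass (0.33), nor did Kcnk3 (0.26). Without distal replicate 1, which holds 126 of the 180 pericytes, 4 of the 13 passed; vascular smooth muscle is then 1 library, assumed to vary like the other classes. Vascular smooth muscle, with a floor of 6.75 CPM for 3 counts, and pericytes, with 8.98 CPM, cannot show low members. Both floors are for the pooled distal libraries, and that of distal replicate 2, with 14 pericytes, is higher.

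Genes that act with these channels were read from a list of 15 partners without a Kcn symbol and a list of 34 calcium and other excitability channels. Of the partners, 10 were tested in each class comparison: 4 were higher and 3 lower in ciliated than in non-ciliated epithelium, 4 and 1 in visceral smooth muscle against fibroblasts, 2 and 2 in vascular against visceral smooth muscle, and 1 and 2 in pericytes against vascular smooth muscle (edgeR, adjusted p under 0.05). Of the 34, 28 were tested, with 13 higher and 4 lower, 14 and 8, 7 and 7, and 3 and 5 in the same order of comparisons. Beside these counts stand 62.6%, 31.8%, 13.1% and 5.83% of all genes called in the same 4 comparisons. In ciliated cells the calcium release channel Ryr2 was at 108 ± 13.7 CPM against 0.606 CPM (7.29 ± 0.30), the low-voltage calcium channel Cacna1h differed by 6.49 ± 0.39 and the A-type auxiliary gene Dpp6 by 5.75 ± 0.28, while the calcium-activated chloride channel Ano1 was lower (-4.68 ± 0.30). The 2 smooth muscle classes held different ryanodine receptors: Ryr3 was at 151 CPM in visceral smooth muscle and at least 24.5-fold lower in vascular smooth muscle, where it had 0 counts, and Ryr2 was at 182 CPM in vascular and 18.8 CPM in visceral smooth muscle (3.22 ± 0.32).

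The distal and proximal libraries were compared within each class that allowed it, the question of the study's division of the tube. In ciliated epithelium only proximal replicate 4 had at least 10 cells, in visceral smooth muscle and pericytes no proximal library did, and no test was made there. That single proximal ciliated library, of 29 cells, read 58.2 CPM for Kcnmb2, 116 CPM for Kcnk12, 11.6 CPM for Kcnmb1 and 408 CPM for Kcnk1, against 62.7 to 73.3 CPM for Kcnk1 in the distal libraries; 3 counts in it are worth 34.9 CPM. In it 96.55% of the cells belong to cluster 14, against 17.4% to 30.0% in the distal libraries, and distal cluster 14 had Kcnk1 at 142 CPM. Its ciliated markers summed to 4657 CPM, against 11890 to 13930 CPM in the distal ciliated class, and its epithelial markers to 6473 CPM, against 1634 to 2205 CPM; their part in these values was not tested.

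In non-ciliated epithelium Kcnip4 and Kcnq5 fell and Kcnh1 rose from distal to proximal. Kcnip4 read 76.8, 45.2 and 74.1 CPM in distal replicates 1, 2 and 3 and 5.45, 4.28 and 9.33 CPM in proximal replicates 2, 3 and 4. Kcnq5 read 56.4, 39.5 and 74.2 CPM and then 1.36, 4.28 and 9.33 CPM. Kcnh1, an ether-a-go-go pore, read 0.191, 1.48 and 0.984 CPM and then 4.09, 42.8 and 24.9 CPM. None of the 3 overlapped between regions, with all proximal libraries low for Kcnip4 and Kcnq5 and proximal replicate 2 nearest to the distal level for Kcnh1. The log2 differences, proximal minus distal, were -3.39 ± 0.46 for Kcnip4 (edgeR, adjusted p = 0.00838), -3.64 ± 0.56 for Kcnq5 (0.0131) and 4.39 ± 0.80 for Kcnh1 (0.0213). They were 3 of the 22 members tested, 1 up and 2 down, beside 3.38% of all genes (2.45% up, 0.931% down), with a median of 0 against -0.08 over all genes; 8 of the 22 had an unadjusted p under 0.05, as did 17.2% of all genes. The proximal values rest on 11 counts of Kcnip4, 8 of Kcnq5 and 29 of Kcnh1.

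Of the 6 highest members of the class only Kcnip4 passed between regions, and Kcne3 and Kcnk1 overlapped between them. Which clusters fill the class differed between libraries. Distal Kcnq5 (143 CPM) and Kcnip4 (117 CPM) were highest in cluster 7. It made up 9.05% to 38.0% of the class in the distal libraries and had 0 cells in each proximal library. Cluster 26, led by Serpina1e, made up 92.4% in proximal replicate 3 and 55.7% in proximal replicate 4. It held 23 of the 29 proximal counts of Kcnh1 (32.9 CPM). In cluster 6, the proximal level was 44.2 CPM for Kcnip4 (9 counts) and 26.5 CPM for Kcnq5 (3 counts), against 71.5 and 38.9 CPM in the distal libraries. Secretory markers summed to 13000 to 19230 CPM in the distal and 3138 to 15340 CPM in the proximal libraries, and mesothelial markers to 325 to 563 and 0 to 150 CPM. Further sums that did not overlap were those of ciliated (173 to 237 CPM distal, 64.2 to 112 CPM proximal), smooth muscle (253 to 422 and 46.4 to 194 CPM) and lymphatic markers (8.55 to 18.7 and 62.7 to 218 CPM), among others; their part in the result was not tested. All 3 calls were lost without distal replicate 1, distal replicate 3 or proximal replicate 3. Kcnh1 (edgeR, adjusted p = 0.0829) and Kcnq5 (0.06) were also lost without distal replicate 2 and Kcnh1 (0.0916) without proximal replicate 4. Without proximal replicate 2, 11 members passed, where 3274 genes of any kind did, against 436 with all libraries.

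In fibroblasts Kcnt2 rose and Kcnk2 and Kcnj8 fell from distal to proximal. Kcnk2 read 209.9, 180.3 and 153 CPM in the distal and 83.4, 62.7 and 81.3 CPM in the proximal libraries. Kcnj8 read 26.5, 27.5 and 16.0 CPM and then 7.51, 10.5 and 6.89 CPM. Both genes separated the regions without overlap. So did Kcnt2, with 44.5, 29.8 and 21.8 CPM in the distal and 77.9, 94.0 and 124 CPM in the proximal libraries.

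The log2 differences were 1.47 ± 0.31 for Kcnt2 (edgeR, adjusted p = 0.0341), -1.31 ± 0.30 for Kcnk2 (0.0438) and -1.68 ± 0.39 for Kcnj8 (0.0457). Kcnk2 did not pass with a replicate block by title number (-1.24, adjusted p = 0.105) or by description number (-1.10, 0.0855), and Kcnj8 did not pass with DESeq2 (0.0542). Of the 30 members tested 4 were called, 2 in each direction, beside 2.9% of all genes (1.98% up, 0.918% down), with a median of 0.29 against -0.03; 13 of the 30 had an unadjusted p under 0.05, as did 16.6% of all genes. Kcnq3, the leading fibroblast member, overlapped between regions, with 56.5, 293 and 175 CPM in the proximal libraries, and Kcnma1 (-1.46, adjusted p = 0.0606) and Kcnip1 (-2.17, 0.0838) did not pass. Of the other excitability channels, Cacna1d, a voltage-gated calcium channel pore, fell (-2.45 ± 0.39, adjusted p = 0.0139) and the sodium leak channel Nalcn rose (2.32 ± 0.51, 0.0414), 2 of 25 tested beside the 2.9% of all genes, and none of the 7 partners tested passed.

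The fibroblast subtypes also differed between libraries. Cluster 13, led by Abca8a and Pcdh9, made up 45.9% of the class in proximal replicate 3 and 51.5% in proximal replicate 4. It had the highest distal Kcnt2 (130 CPM). Cluster 10, led by Ly6h, made up 62.0% of the class in proximal replicate 2. It had the lowest mean distal Kcnk2 (82.6 CPM) and Kcnj8 (2.83 CPM). These means rest on 2 libraries, of which distal replicate 3 had 18 cells of the cluster. With the distal counts pooled, Kcnk2 was at 119.2 CPM in cluster 10 and lower, at 97.38 CPM, in cluster 4. Within cluster 4 alone, led by Inmt and Tcf21 and present in both regions, the differences were 0.59 for Kcnt2 (edgeR, adjusted p = 0.651), -0.41 for Kcnk2 (0.873) and -0.27 for Kcnj8 (0.97), a setting chosen after seeing the data. Kcnj8 was highest in pericytes, and pericyte markers summed to 222 to 296 CPM in the distal and 123 to 324 CPM in the proximal fibroblasts. Marker sums without overlap between the regions were those of visceral smooth muscle (441 to 462 CPM distal, 326 to 402 CPM proximal), vascular smooth muscle (46.7 to 101 and 20.9 to 43.5 CPM) and blood endothelium (17.9 to 19.0 and 46.3 to 83.6 CPM), among others; the part of any of these in the results was not tested. All 4 calls were lost without any 1 of distal replicates 1, 2 and 3 or proximal replicate 3, and 2 members passed without proximal replicate 4. Without proximal replicate 2, 10 members passed, where 2005 genes of any kind did, against 398 with all libraries. Kcnt2 (edgeR, adjusted p = 0.0527), Kcnk2 (0.0948) and Kcnj8 (0.09) did not pass without proximal replicate 4.

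**Figure D5:**
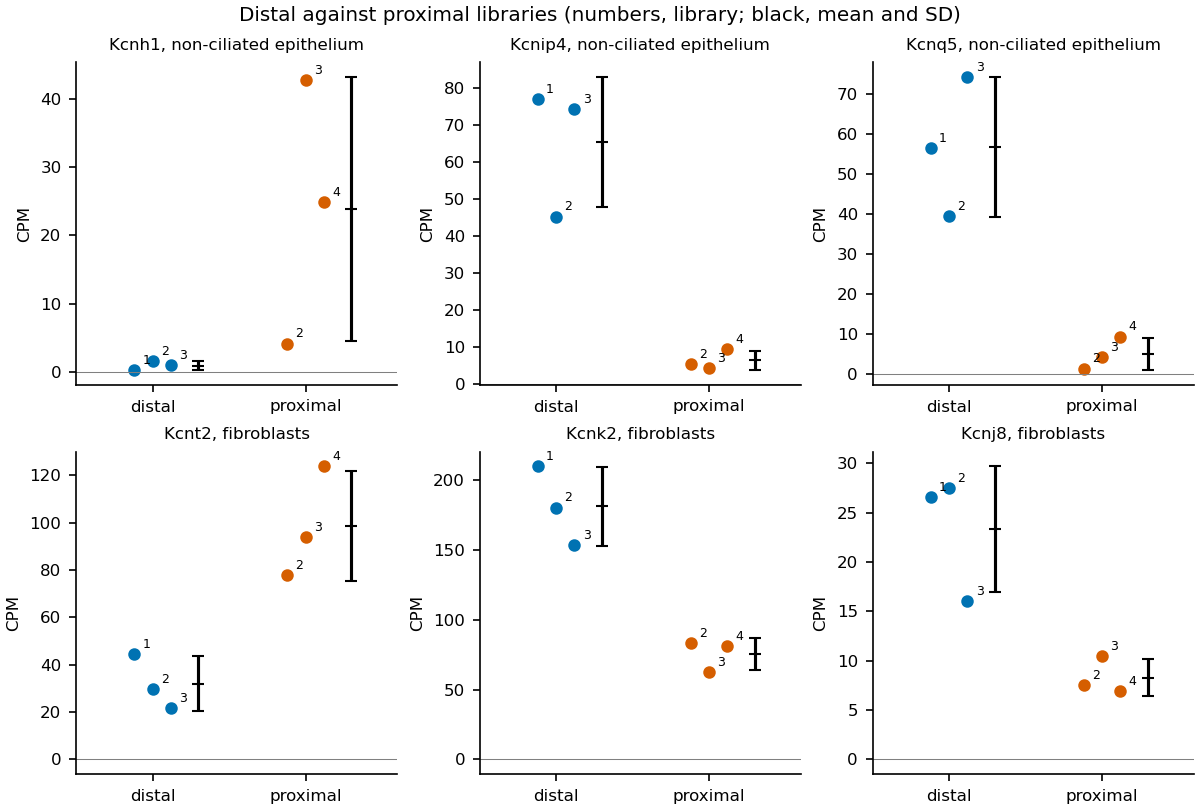
Level in CPM of 6 members that differed between regions, in non-ciliated epithelium (Kcnh1, Kcnip4, Kcnq5) and fibroblasts (Kcnt2, Kcnk2, Kcnj8). Points are libraries with their replicate number, black marks are the mean and SD of 3 libraries; the 6 panels show no overlap between distal (blue) and proximal (orange) libraries.

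Whether the regional difference itself differed between the 2 classes was tested with an interaction term. It passed for 2 of 40 members, both negative, beside 1.75% of all genes (0.622% positive, 1.13% negative; edgeR, adjusted p under 0.05). Kcnq5 had an epithelial minus fibroblast difference of -5.84 ± 0.68 (edgeR, adjusted p = 0.000581). This was larger in size than the epithelial difference alone, which came from a separate fit. A fibroblast difference of the opposite sign is inferred from both fits only. Kcnq5 was at 470 CPM in distal T and NK cells. Markers of those cells summed to 0.638 to 0.941 CPM in distal and 3.16 to 20.9 CPM in proximal fibroblasts, and their part was not tested. Distal fibroblasts held Kcnq5 at only 1.90 ± 0.965 CPM, a low level. For Kcnip4 (-4.04 ± 1.02, adjusted p = 0.0681), Kcnh1, Kcnt2, Kcnk2 and Kcnj8 the interaction did not pass, and a difference between the classes was not shown.

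In vascular smooth muscle, distal replicates 1 and 3 and proximal replicates 3 and 4 had enough cells. None of the 4 members tested passed (edgeR, adjusted p under 0.05), beside 6.38% of all genes (2.18% up, 4.2% down); 1 had an unadjusted p under 0.05, and DESeq2 called 0. Kcnab1 read 1808 and 1577 CPM in the distal and 2556 and 2997 CPM in the proximal libraries, which did not overlap (0.59 ± 0.29, adjusted p = 0.209). Kcne4 read 99.4 and 111 CPM and then 192 and 266 CPM, also without overlap (1.14 ± 0.45, adjusted p = 0.142). Kcnma1 (0.36) overlapped between regions. This comparison was added after the cell numbers were seen, and 3 proximal counts are worth 41.6 CPM.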

How the data were processed

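The 6 libraries were deposited as matrices of raw UMI counts per gene and cell barcode; the authors made these counts with Cell Ranger, version 6.1.2 on genome mm39 per the submitters' processing notes and version 7.0.0 per the file headers. Barcodes with at least 500 UMIs, 250 genes and at most 20% mitochondrial counts were kept, 818 likely doublets (0.8% per 1000 barcodes, by similarity to simulated doublets) were removed, and 18466 of 20731 barcodes remained. Cells were clustered (2000 variable genes without the 92 members, 30 components, 15 neighbours, resolution 1, leidenalg 0.10.2) into 31 clusters, named from 98 markers.

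Counts were summed per library and class (at least 10 cells) and tested with edgeR 4.0.16 (TMM, filterByExpr, quasi-likelihood test, Benjamini-Hochberg adjustment over all genes tested); class comparisons used the distal libraries with the library as block. The fit was tested on simulated data. Alternatives were DESeq2 1.42.0, its size factors, no filter, 20 cells and leaving out each library. Named were the 6 highest members per class, the called members (8 per direction at most) and a fixed list of members. The members, lists and tests were chosen with earlier results of these data known. Of the members, 2 are counted but not reported by name here. Intervals and floors (95%, 3 counts) cover counting error only, and promoters came from RefSeq on GRCm38.p6, with no coordinates compared between builds.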

Additional observations from a re-analysis of the deposited data

Results flagged for a closer look

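The distal to proximal difference was tested for a difference between non-ciliated epithelium and fibroblasts. It passed for Kcnq5 (log2 -5.84), which fell in epithelium. The opposite sign in fibroblasts is inferred from the size of this value, and their distal level was low at 1.90 CPM. The part of T and NK RNA in fibroblasts was not tested.

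Several members were also high in cells outside the 6 classes, which no main comparison used. In T and NK cells Kcnq5 was at 470.1 CPM in the distal libraries (SD 162, n = 3) and 494.5 CPM in the proximal libraries. In blood endothelium Kcnq1 was at 134.6 CPM, in lymphatic endothelium Kcnk5 was at 99.83 CPM in 1 library, and in myeloid cells Kcnk13 was at 61.27 CPM. In mesothelial cells Kcnb2 was at 457.7 CPM (SD 287, 2 libraries), a wide spread. In cells with granulosa or luteal markers Kcnma1 was at 859.6 CPM (SD 179), above its 550 CPM in visceral smooth muscle. In the unnamed cluster 21 Kcnmb1 was at 228.4 CPM. In cluster 18, whose cells have a median of 17147 UMIs, Kcnk1 was at 221.7 CPM beside Kcne3 at 169 CPM and Kcnmb2 at 139 CPM. Clusters 21 and 18 are not separate from ciliated cells by markers: they held 7 and 8 of the 8 ciliated markers in at least 20% of their cells. Each was added to the ciliated class in an alternative.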

How the results depend on the processing

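No member called in a comparison changed direction in the alternatives run for it; members that were not called were not followed. Over the called members, the class comparisons kept 355 of their values on the same side of the threshold in ciliated epithelium (7 weaker), 189 in visceral smooth muscle (9 weaker), 76 in vascular smooth muscle (11 weaker) and 83 in pericytes (18 weaker), and the region comparisons 24 in non-ciliated epithelium (12 weaker), 25 in fibroblasts (30 weaker) and 16 for the interaction (4 weaker).

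With no low-count filter 10 members (1461 genes) were called between regions in non-ciliated epithelium, 8 (1341) in fibroblasts, 5 (645) for the interaction and 38 genes in vascular smooth muscle. DESeq2 called 5 members (1520 genes) in non-ciliated epithelium, 4 for the interaction and 41 genes in vascular smooth muscle, against 3 members (436 genes), 2 members (279 genes) and 79 genes with edgeR; in fibroblasts each called 4 members (398 genes with edgeR, 517 with DESeq2), Kcnj8 not among those of DESeq2. Within single clusters, 0 members (9 genes) were called in cluster 12 of the epithelium, and 1 (188), 0 (11) and 0 (9) in clusters 4, 10 and 13 of the fibroblasts.

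Leaving out each library in turn gave 0 to 11 members (6 to 3274 genes) in non-ciliated epithelium, 0 to 10 (28 to 2005) in fibroblasts, 1 to 2 (69 to 543) for the interaction, 0 to 50 genes in vascular smooth muscle, 22 to 24 (2675 to 4862) for visceral smooth muscle against fibroblasts, 3 to 11 (426 to 2307) for vascular against visceral smooth muscle and 4 to 13 (199 to 1060) for pericytes against vascular smooth muscle.

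The replicate numbers of titles and descriptions differ and give fewer than 3 pairs, so they were not taken as pairs. Deviations of same-numbered libraries correlated at 0.12 to 0.56 by title. With a replicate block by description number 5 members were called in non-ciliated epithelium and 6 in fibroblasts, and by title number 4 and 3. With no replicate block in the class comparisons 37, 25, 10 and 12 members were called. These block counts stand without those over all genes and do not set the members against other genes. A block could not be fitted in vascular smooth muscle. The region comparisons of ciliated epithelium and visceral smooth muscle, with every alternative, were not run for want of proximal cells. Proximal depth limits the region comparisons: 3 counts are 1.86 CPM in proximal non-ciliated epithelium and 0.895 CPM in fibroblasts.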
